A study of Mus musculus with 9 samples.

Results

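Open chromatin was described at 8 genes of dendritic cell maturation and migration, chosen by name: Ccr7, Cd83, Cd200, Fscn1, Ccl17, Ccl22, Il4i1 and Il15. Every peak that lay in the RefSeq span of 1 of these genes or within 10 kb of it, on mouse build mm10, was counted as belonging to it. The peaks came from ATAC-seq, in which a transposase cuts open DNA and leaves sequencing adaptors there. The 8 genes were taken from 21887 protein-coding genes, and 7 of them had at least 1 peak. Merging the peaks of all lists gave 76 regions at the 8 genes, of 142985 regions near any protein-coding gene and 194768 regions in all.

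The cells were primary dendritic cells grown for 9 days from C57Bl/6 mouse bone marrow in 20 ng/mL GM-CSF, and all groups shared this treatment. Each culture received a retrovirus on day 2, and cells positive for the human CD8 reporter and for CD11c were sorted, so untransduced cells were not part of any group. OE cells carried the vector that overexpresses Pcgf6, and mi8 was its control vector. HP109 cells carried a hairpin RNA that lowers Pcgf6, and LMP8 was its control vector. There were 9 libraries, 2 per vector and 1 input, but 1 peak list per vector, so no value has a replicate spread and no test between vectors was possible. The question behind the design, per the series title, is how Pcgf6, a Polycomb-group repressor, acts on the activation of dendritic cells. Accessibility at the Pcgf6 gene does not report its RNA level, and it was not used here to check the vectors.

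When a dendritic cell matures, it shows more costimulatory and adhesion proteins, reshapes its actin skeleton and follows chemokines from the tissue to the lymph node. Ccr7 is the chemokine receptor that guides this journey, Fscn1 (fascin) bundles actin in the long processes of the mature cell, and Cd83 and Cd200 are surface proteins of activated cells. Ccl17 and Ccl22 are chemokines that draw T cells carrying the receptor Ccr4. Il4i1 encodes an L-amino acid oxidase that restrains T cells, and Il15 is a cytokine that sustains memory CD8 T cells and natural killer cells.

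The promoter table used here, made from RefSeq for assembly GRCm38.p6, held 5 of the 8 genes. The 250 bases before the start are printed for Ccl17, Ccl22, Il4i1 and Cd200, the 4 of these 5 with a peak there in at least 1 list. They were printed because at these starts the peak was weaker in OE than in mi8 or absent from OE. Scaled by depth, OE also lay below mi8 in 72.3% of all shared regions at gene starts. Relative to the shift typical of regions near genes, described below, the intervals at Ccl22 and Cd200 include 1 and that at Ccl17 does not. Capitals mark the bases that lay inside the peak of every list that had a peak in the 250 bases. Each sequence reads 5′ to 3′ on the strand of the gene, which is the minus strand for Cd200 and the plus strand for the others.
Ccl17, chr8:94810203-94810452: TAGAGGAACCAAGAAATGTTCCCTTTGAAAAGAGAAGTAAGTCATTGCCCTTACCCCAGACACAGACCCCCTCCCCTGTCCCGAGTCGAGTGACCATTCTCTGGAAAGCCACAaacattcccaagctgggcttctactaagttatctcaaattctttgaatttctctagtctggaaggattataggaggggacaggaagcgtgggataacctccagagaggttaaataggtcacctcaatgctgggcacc
Ccl22, chr8:94745434-94745683: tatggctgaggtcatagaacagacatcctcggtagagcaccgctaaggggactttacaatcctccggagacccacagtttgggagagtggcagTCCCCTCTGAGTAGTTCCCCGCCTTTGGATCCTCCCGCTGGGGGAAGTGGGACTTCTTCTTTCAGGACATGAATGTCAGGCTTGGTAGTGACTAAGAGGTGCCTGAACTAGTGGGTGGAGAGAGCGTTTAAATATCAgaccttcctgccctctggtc
Il4i1, chr7:44836038-44836287: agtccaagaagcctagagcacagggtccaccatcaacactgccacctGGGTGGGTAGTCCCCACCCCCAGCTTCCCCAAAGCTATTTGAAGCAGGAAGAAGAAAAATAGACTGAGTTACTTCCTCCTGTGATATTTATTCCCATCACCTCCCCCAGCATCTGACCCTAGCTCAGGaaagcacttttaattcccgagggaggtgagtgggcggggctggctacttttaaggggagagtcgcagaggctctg
Cd200, chr16:45409054-45409303: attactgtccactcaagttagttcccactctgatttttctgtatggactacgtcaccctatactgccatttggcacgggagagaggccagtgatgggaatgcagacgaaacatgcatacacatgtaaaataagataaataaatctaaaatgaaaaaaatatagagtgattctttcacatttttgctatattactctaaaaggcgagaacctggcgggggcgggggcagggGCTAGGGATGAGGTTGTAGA
At Ccl17 the capitals run from base 250 to base 138 before the start, so the open stretch common to the 4 lists ended upstream of the start. At Ccl22 they run from base 157 to base 21. At Il4i1 they run from base 203 to base 76 and show the peak of mi8, the single list with a peak there. At Cd200 the last 20 bases lay inside the peaks of both mi8, which covered 20, and HP109, which covered 56, while the peaks of OE and LMP8 at this start covered none of the 250.

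The promoters were searched on both strands for 6 motifs: AP-1 TGANTCA, PU.1 GAGGAAG, the ISRE consensus, STAT TTCNNNGAA, the NF-kB consensus and the TATA box TATAAA. The ISRE and STAT letters can overlap each other. Ccl17 held 1 STAT match, TTCTTTGAA, at bases 99 to 91 before the start and outside the capitals; 7.02% of the 32851 RefSeq promoters of this length held one. Il4i1 held 1 PU.1 match, printed as CTTCCTC on the plus strand, at bases 132 to 126 and inside the mi8 peak; 10.6% of all promoters held one. Fscn1 held 1 TATA box match at bases 31 to 26, against 12.4% of all promoters. None of the 6 letter strings occurred in these 250 bases at Ccl22 or Cd200, and the AP-1 (6.75% of all promoters), ISRE (2.98%) and NF-kB (3.90%) letters occurred in none of the 5 promoters.

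The lists held 111510 peaks for OE, 170976 for mi8, 170103 for HP109 and 140735 for LMP8. Sequencing depth, read from the step size of the input-derived background of each list, was 0.998 times as high in OE as in mi8 and 0.992 times as high in HP109 as in LMP8. Between the controls the ratio was 0.730 for LMP8 over mi8, so a weak peak had less chance of being called in LMP8 than in mi8. Of the dendritic cell markers, 11 of 12 had a peak within 1000 bp of a gene end in OE, where Ciita had none, and 12 of 12 had one in mi8, HP109 and LMP8. Macrophage markers had one at 8 of 8 in every list, and granulocyte markers had one at 3 of 10 in OE, 6 in mi8, 7 in HP109 and 5 in LMP8. Lymphoid markers had an end peak at 3 of 11 genes in OE, 5 in mi8, 6 in HP109 and 4 in LMP8, erythroid and megakaryocyte markers at 2, 4, 5 and 3 of 6 in the same order of lists, and stromal and epithelial markers at 3, 5, 4 and 3 of 5. Over all genes the share was 58.2% in OE, 64.8% in mi8, 64.3% in HP109 and 62.4% in LMP8, and the part of other cell types in the results below was not tested.

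Of the 76 regions at the 8 genes, 47 (61.8%) were present in all 4 lists, against 47.8% of the regions near any gene. Where a peak of each list had to cover at least 50% of the region, the share was 44.7%, against 35% near any gene. Another 9 (11.8%) were in mi8 alone and 8 (10.5%) in HP109 alone, against 9.55% and 8.73% near any gene. LMP8 alone held 2 (2.63%) and OE alone held 1 (1.32%), against 2.36% and 1.25% near any gene. Among the regions found in 3 lists, 4 (5.26%) were missing from OE alone, against 13.7% near any gene. Another 3 (3.95%) were missing from LMP8 alone, against 2.72%, and 1 (1.32%) from HP109 alone, against 0.360%. The last region (1.32%) was in mi8 and LMP8, against 2.42%. No region was in mi8 and HP109 alone, a state that held 7.79% of the regions near any gene. The 10 kb limit decided a few regions: just inside it, 9.74 kb above Ccr7, lay a region with 46 reads in OE and 45 in mi8, and just outside it, 10.1 kb below Cd83, lay one with 23 reads in mi8 and no peak in OE. At 10.1 kb above Il4i1, a region with 37 reads in OE and 55 in mi8 was also left out.

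**Figure D1:**
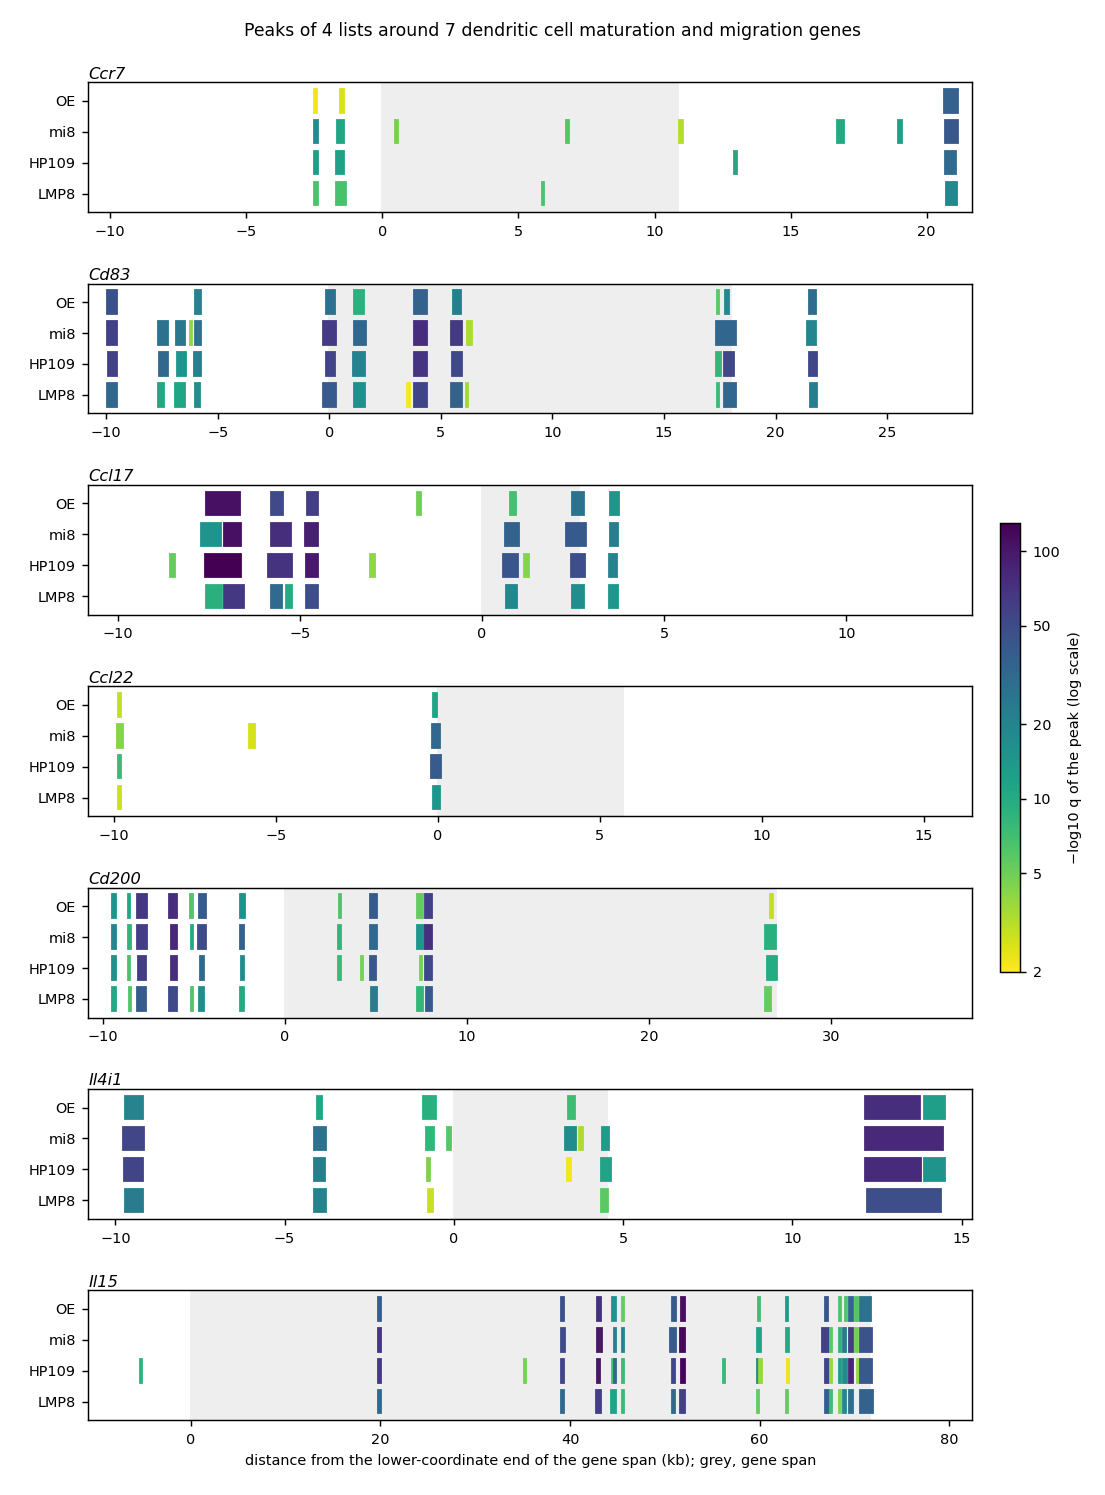
Peaks of the 4 lists around the 7 genes with a peak, drawn by distance in kb from the lower-coordinate end of the gene span, which is grey. Each bar is 1 peak of the list named at the left, to scale, and its colour gives the −log10 q on a log scale. Regions that fill all 4 tracks dominate at Cd200 and Il15, while Ccr7 shows bars in the mi8 track that the other tracks lack.

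The strength of a peak is given below in 2 forms. The −log10 q, deposited by the authors, says how far the summit stood above the background of its own list, and it falls with lower depth. The summit reads are the reads stacked at the highest point of the peak, recovered from the deposited fold and −log10 p. Their ratio between a vector and its control was divided by the depth ratio and then by the median ratio of all shared regions near genes, so that 1 means the shift typical of regions near genes. Before that last step the median over all shared regions near genes was 0.796 for OE over mi8 and 1.40 for HP109 over LMP8, and the medians at the 8 genes were 0.801 and 1.36. Exact 95% intervals cover counting error only, and duplicate molecules were not told apart.

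Ccr7, the receptor that leads mature cells to the lymph node, had most of its regions, 7 of 10, in a single list each. Near any gene, 9.55% of regions were in mi8 alone, 8.73% in HP109 alone, 2.36% in LMP8 alone and 1.25% in OE alone. The span of Ccr7 on chromosome 11, 99144199 to 99155077, and its flanks held 10 regions, of which OE had 3, mi8 8, HP109 4 and LMP8 4. Of the 8 mi8 regions, 5 (62.5%) had no OE peak, against 39.3% near any gene. The 3 regions present in OE were those present in all 4 lists, and all 3 lay outside the span.
The strongest of them, at 99164819 to 99165333, lay 9.74 kb above the span. It had 46 summit reads in OE, 45 in mi8, 34 in HP109 and 24 in LMP8. Its relative ratio was 1.29 (0.834 to 1.98) for OE over mi8 and 1.02 (0.587 to 1.80) for HP109 over LMP8, so neither vector stood apart from its control beyond counting error. The other shared regions lay below the span and were weak in OE. At 99141681 to 99141840 the −log10 q was 2.20 in OE, 17.9 in mi8, 12.9 in HP109 and 6.49 in LMP8. The summit reads there were 15 in OE, 32 in mi8, 25 in HP109 and 19 in LMP8, a relative ratio of 0.590 (0.297 to 1.12) for OE over mi8. At 99142487 to 99142879 there were 11 reads in OE, 21 in mi8, 19 in HP109 and 15 in LMP8, a relative ratio of 0.659 (0.287 to 1.43). Both ratios for OE lay below 1 with intervals that include it.

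Inside the Ccr7 span no list shared a peak with another. The mi8 list had peaks at 99144656 to 99144756 with −log10 q 4.76 and at 99150950 to 99151063 with 6.16, and LMP8 had one at 99150048 to 99150147 with 6.49. A further mi8 peak, at 99155113 to 99155230, began 0.036 kb above the span and had −log10 q 3.18, and no other list had a peak within 1000 bp of either end. The strongest region in mi8 and not in OE was at 99163158 to 99163298, with 23 reads and −log10 q 11.9, and it was also missing from HP109 and LMP8. The region in HP109 and not in LMP8 was at 99157100 to 99157235, with 16 reads and −log10 q 10.6. All these peaks were seen in 1 list each, and a missing peak means that the call was not made, not that no reads fell there.

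Cd83, a surface protein used to tell mature dendritic cells from immature ones, had 2 strong regions that were missing from OE. Of the 8 regions that OE and mi8 shared, 2 were lower in OE by 1.5-fold or more relative to the typical shift and 1 was higher, while near any gene 13.1% were lower and 7.35% higher. Its span on chromosome 13, 43785112 to 43803133, and flanks held 13 regions, of which OE had 8, mi8 12, HP109 10 and LMP8 12. All 8 regions of OE were present in every list.
The region at the lower end of the span, 43784823 to 43785416, had 34 reads in OE, 62 in mi8, 50 in HP109 and 41 in LMP8. Its −log10 q was 27.2 in OE, 63.3 in mi8, 56.5 in HP109 and 39.8 in LMP8. OE was the lowest of the 4 lists there although its depth matched that of mi8, and the relative ratio was 0.690 (0.440 to 1.06) for OE over mi8 and 0.878 (0.569 to 1.36) for HP109 over LMP8. Inside the span, 3 other regions followed the same order of lists. The strongest of the gene, at 43788887 to 43789493, had 49 reads in OE, 82 in mi8, 69 in HP109 and 60 in LMP8, with a relative ratio of 0.752 (0.517 to 1.08) for OE over mi8. It ranked in the top 23.9% of the peaks of OE, the top 7.27% of mi8, the top 10.9% of HP109 and the top 4.28% of LMP8. The one at 43786192 to 43786746 had 17 reads in OE, 43 in mi8, 31 in HP109 and 27 in LMP8, a relative ratio of 0.497 (0.266 to 0.890) for OE over mi8. At 43790558 to 43791065 there were 29 reads in OE, 60 in mi8, 47 in HP109 and 36 in LMP8, with a relative ratio of 0.608 (0.376 to 0.962). The last 2 intervals lie below 1, so these regions had fewer reads in OE than the typical shift gives. The intervals cover counting error only and were not adjusted for the 51 regions that OE and mi8 shared at the 8 genes.

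Below the span, 2 strong regions were missing from OE alone. The one at 43777414 to 43777884 lay 7.23 kb below the span and had 45 reads in mi8, 34 in HP109 and 23 in LMP8, with −log10 q 27.9 in mi8, 32.5 in HP109 and 10.9 in LMP8. The neighbour at 43778207 to 43778702 had 36 reads in mi8, 20 in HP109 and 17 in LMP8, with −log10 q 25 in mi8, 15 in HP109 and 11.1 in LMP8. These were the only 2 mi8 peaks with −log10 q of at least 20 at the 8 genes that overlapped no OE peak, of 36 such peaks (5.56%); near any gene 3.99% of such mi8 peaks were absent from OE.
The flanks also held regions with no deficit in OE. Farther out, at 43775131 to 43775605, there were 49 reads in OE, 58 in mi8, 52 in HP109 and 35 in LMP8, and the relative ratio was 1.06 (0.711 to 1.58). Above the span, at 43806541 to 43806956, OE had more reads than mi8, with 37 in OE, 27 in mi8, 48 in HP109 and 27 in LMP8. Its relative ratio of 1.72 (1.02 to 2.94) was the highest of all 51 regions at the 8 genes that OE and mi8 shared, and the same region had 1.28 (0.783 to 2.13) for HP109 over LMP8 and 1.54 (0.868 to 2.73) for LMP8 over mi8. For HP109 over LMP8 the relative ratios of the 10 shared Cd83 regions ran from 0.827 to 1.28 with a median of 0.909.

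Cd200, a surface glycoprotein that calms cells carrying its receptor, had nearly the same regions in every list. Its span on chromosome 16, 45382111 to 45409060, minus strand, and flanks held 13 regions, of which OE had 12, mi8 12, HP109 12 and LMP8 11, and 10 were in all 4. No Cd200 region of mi8 was missing from OE or the reverse.
The strongest region lay 5.91 kb below the span, at 45375763 to 45376202, past the end of the gene. It had 69 reads in OE, 72 in mi8, 62 in HP109 and 47 in LMP8, with a relative ratio of 1.21 (0.854 to 1.70) for OE over mi8 and 0.95 (0.640 to 1.42) for HP109 over LMP8. In contrast to Cd83, the median relative ratio of the 12 regions shared by OE and mi8 was 1.14, and 4 of them were below 1. Inside the gene, at 45386766 to 45387165, OE had the most reads of the 4 lists, with 44 in OE, 37 in mi8, 40 in HP109 and 27 in LMP8. Its relative ratio for OE over mi8 lay just under the mark of 1.5-fold used below, with an interval of 0.944 to 2.38.
The start of Cd200 held a weak region at 45408459 to 45409109, with 15 reads in OE, 26 in mi8, 20 in HP109 and 16 in LMP8. Its −log10 q was 2.94 in OE, 9.15 in mi8, 9.96 in HP109 and 5.32 in LMP8. The relative ratio of 0.726 (0.357 to 1.42) for OE over mi8 did not stand apart from 1. Between HP109 and LMP8 the strongest of the regions found in 1 list only was at 45384998 to 45385189, with 13 reads in HP109 and −log10 q 7.62, and it was present in OE and mi8 too.

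Fscn1, the actin-bundling protein fascin, had no peak in any of the 4 lists within 10 kb of its span on chromosome 5, 142960355 to 142973189. The nearest peak of any list ended at 142938757, 21.6 kb below the span, and the next began at 143032990, 59.8 kb above it. The stretch without a peak was 94.2 kb long for the 4 lists together. The lists as used here may hold only part of the rows at this locus, so the gap describes these lists and not the chromatin. Of the 21887 protein-coding genes, 3958 (18.1%) had no region within 10 kb, and the median gene had 6. No level, ratio or order of vectors can be given for Fscn1.

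Ccl17, a chemokine of mature dendritic cells, had a group of strong regions upstream of the gene, among them the peak with the highest −log10 q of any list at the 8 genes. Its span on chromosome 8, 94809380 to 94812038, plus strand, and flanks held 10 regions, of which OE had 7, mi8 6, HP109 9 and LMP8 6. The 6 regions of mi8 were those present in all 4 lists.
The strongest, at 94801679 to 94802847, lay 6.53 kb below the span. It had 90 reads in OE, 89 in mi8, 94 in HP109 and 57 in LMP8, and −log10 q of 109 in OE, 109 in mi8, 131 in HP109 and 65.7 in LMP8. The authors' fold over background was 30.3 in OE, 30.5 in mi8, 40.3 in HP109 and 23.9 in LMP8. With ranks in the top 1.46% of OE, 1.27% of mi8, 0.616% of HP109 and 1.56% of LMP8, it was among the strongest peaks of every list, and its relative ratio of 1.27 (0.938 to 1.72) for OE over mi8 did not stand apart from 1. Next to it, the region at 94803499 to 94804174 had 62 reads in OE, 76 in mi8, 78 in HP109 and 43 in LMP8. Closer to the gene, the region at 94804529 to 94804894 had 61 reads in OE, 81 in mi8, 79 in HP109 and 48 in LMP8. These upstream regions had relative ratios for OE over mi8 of 1.03 and 0.947, close to the typical shift.

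The start of Ccl17 behaved otherwise. The RefSeq start of the promoter table, 94810453, lies inside the span. The region that ends just before it, 94809944 to 94810401, had 16 reads in OE, 43 in mi8, 44 in HP109 and 25 in LMP8. Its −log10 q was 6.80 in OE, 35.8 in mi8, 43.7 in HP109 and 18.6 in LMP8. The peak of OE covered 113 of the 250 bases printed above, while the mi8 peak covered 199, the HP109 peak 156 and the LMP8 peak 135. The relative ratio of 0.468 (0.246 to 0.848) for OE over mi8 was the lowest of all 51 regions shared by OE and mi8 at the 8 genes. For regions at gene starts in general, of which OE and mi8 shared 10496, the median was 1.12, 6.45% were lower by 1.5-fold or more, and 2.68% were higher by as much. The ratio for HP109 over LMP8 was 1.27 (0.759 to 2.16), with an interval that includes 1.
Toward the 3′ end, the region at 94811693 to 94812241 had 38 reads in OE, 49 in mi8, 49 in HP109 and 25 in LMP8. Its relative ratios were 0.976 (0.621 to 1.52) for OE over mi8 and 1.41 (0.855 to 2.38) for HP109 over LMP8. The single region present in OE and absent from mi8 at any of the 8 genes was a weak one at 94807594 to 94807717, with 20 reads and −log10 q 4.97. Of the 9 HP109 regions, 3 (33.3%) were lacking in LMP8, against 24.1% near any gene. The strongest of these 3, at 94800829 to 94800950, had 13 reads and −log10 q 5.37.

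Ccl22, the neighbour of Ccl17 on chromosome 8 and a ligand of the same receptor, had few regions. Its span, 94745684 to 94751388, plus strand, and flanks held 3, of which OE had 2, mi8 3, HP109 2 and LMP8 2.
The strongest was the one at the start, 94745473 to 94745775, with 22 reads in OE, 41 in mi8, 42 in HP109 and 23 in LMP8. Its −log10 q was 11.4 in OE, 32.4 in mi8, 39.9 in HP109 and 14.6 in LMP8. OE and LMP8 were low and mi8 and HP109 high, the same order as at the start of Ccl17. The depth of LMP8 was 0.730 times that of mi8, and the depth of HP109 was 0.992 times that of LMP8. The part of depth in this order was not tested. The relative ratio was 0.675 (0.383 to 1.16) for OE over mi8 and 1.31 (0.773 to 2.29) for HP109 over LMP8, and both intervals include 1. The peak covered 137 of the 250 printed promoter bases in OE, 192 in mi8, 211 in HP109 and 161 in LMP8. The region found in mi8 and not in OE, at 94739854 to 94740034, had 9 reads and −log10 q 2.64 and was missing from HP109 and LMP8 too.

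**Figure D2:**
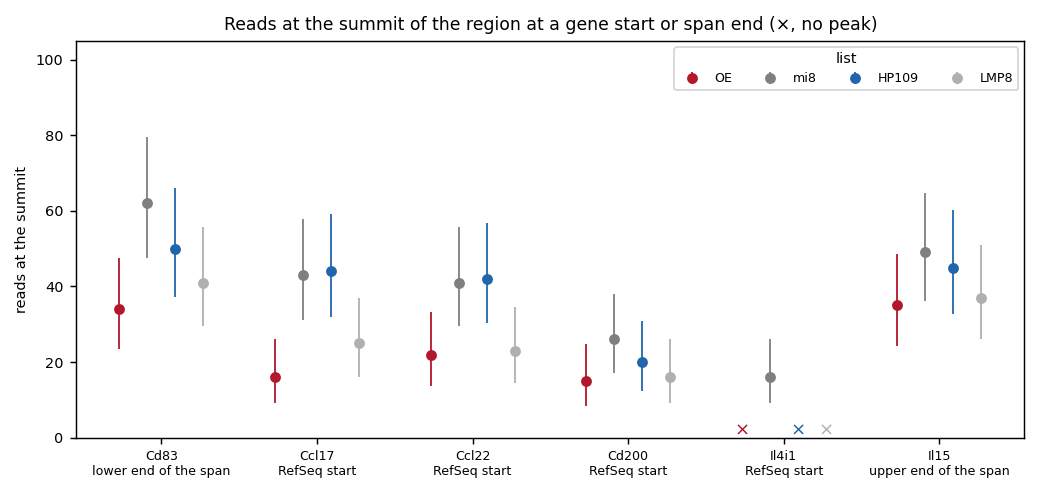
Reads at the summit of the region at the RefSeq start, or at the named end of the span where no start was in the promoter table, for 6 of the genes. Points are the 4 lists, bars are exact 95% counting intervals, and a cross marks a list with no peak. OE lies below mi8 in the 5 regions where OE has a peak, as it did, scaled by depth, in 72.3% of shared regions at gene starts and 77.3% near any gene. There were 16 against 43 reads at Ccl17 and 22 against 41 at Ccl22, while Il4i1 has a point for mi8 only.

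Il4i1, the L-amino acid oxidase, lies in a crowded stretch of chromosome 7, and all 8 of its regions overlap the spans of other genes. Its span is 44836288 to 44840809, plus strand, and the span of Il4i1b, 44816370 to 44840804, covers nearly all of it, so peaks inside cannot be assigned to 1 of them. The window held 8 regions, of which OE had 5, mi8 8, HP109 6 and LMP8 5, and 4 were in all lists.
The strongest, at 44848424 to 44850806, lay at Tbc1d17, Akt1s1 and Mir707, 7.62 kb above the span. It had 76 reads in OE, 79 in mi8, 69 in HP109 and 51 in LMP8, with relative ratios of 1.21 (0.872 to 1.68) for OE over mi8 and 0.974 (0.669 to 1.43) for HP109 over LMP8. At the lower edge of the window, the region at 44826498 to 44827138 overlapped Nup62 and Il4i1b. Here OE had 29 reads, mi8 57, HP109 52 and LMP8 29, a relative ratio of 0.640 (0.395 to 1.02) for OE over mi8 and 1.29 (0.805 to 2.11) for HP109 over LMP8.
The start of Il4i1 had a peak in mi8 only, at 44836085 to 44836212, with 16 reads and −log10 q 5.99. At the upper end of the span, 44840630 to 44840933, mi8 had 25 reads, HP109 20 and LMP8 14, while OE had no peak; with −log10 q 13.1 in mi8 this was the strongest Il4i1 region in mi8 and not in OE. Between HP109 and LMP8 the region found in 1 list only was at 44839572 to 44839889, with 14 reads and −log10 q 2.17 in HP109, and it had 20 reads in OE and 29 in mi8.

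Il15, the cytokine that sustains memory CD8 T cells, had the most regions of the 8 genes, in a gene span of 71629 bp. The span on chromosome 8, 82331624 to 82403252, and flanks held 19, of which OE had 15, mi8 16, HP109 19 and LMP8 15, and 14 were in all lists. All but 1 of the 19 lay inside the span.
The strongest, at 82383260 to 82383775, had 91 reads in OE, 97 in mi8, 89 in HP109 and 52 in LMP8. Its −log10 q was 111 in OE, 122 in mi8, 123 in HP109 and 58.2 in LMP8, within the top 1.33% of OE, 0.425% of mi8, 1.14% of HP109 and 3.34% of LMP8. Relative ratios of 1.18 (0.877 to 1.59) for OE over mi8 and 1.23 (0.866 to 1.77) for HP109 over LMP8 placed it near the typical shift in both pairs. The region at the upper end of the span, 82402188 to 82403592, had 35 reads in OE, 49 in mi8, 45 in HP109 and 37 in LMP8. Its relative ratios were 0.899 (0.565 to 1.42) for OE over mi8 and 0.876 (0.554 to 1.39) for HP109 over LMP8.
Relative to the typical shift, 2 weaker regions of the 15 shared were lower in OE than in mi8 by 1.5-fold or more. Near any gene 13.1% of shared regions were lower by as much. At 82377061 to 82377334 there were 13 reads in OE, 28 in mi8, 13 in HP109 and 14 in LMP8, a relative ratio of 0.584 (0.278 to 1.17) for OE over mi8. At 82400359 to 82400839 there were 14 reads in OE, 30 in mi8, 23 in HP109 and 23 in LMP8, a relative ratio of 0.587 (0.288 to 1.14), and both intervals include 1.
On the same scale, 1 of the 15 Il15 regions that HP109 and LMP8 shared was higher in HP109 by 1.5-fold or more. Another 2 were lower by as much, down to a relative ratio of 0.498. Near any gene 4.24% were higher and 8.67% lower. The higher one, at 82401065 to 82401441, had 38 reads in OE, 57 in mi8, 66 in HP109 and 31 in LMP8. Its relative ratio of 1.53 (0.986 to 2.43) for HP109 over LMP8 was the highest of the 51 regions that this pair shared at the 8 genes. Of the 19 HP109 regions, 4 (21.1%) were lacking in LMP8, against 24.1% near any gene. The strongest of these 4, at 82326260 to 82326427, had 15 reads and −log10 q 8.79. The 1 region in mi8 and not in OE, at 82399009 to 82399278, was weak, with 13 reads in mi8, 9 in HP109 and 13 in LMP8.

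Between OE and mi8, peaks at the 8 genes that only mi8 had were a smaller share than near genes in general, but not among strong peaks, and neither difference has a replicate check. Of the 54 OE peaks at these genes, 1 (1.85%, exact 95% interval 0.0469 to 9.89) overlapped no mi8 peak, against 4.42% of OE peaks near any gene, which the interval includes. Of the 66 mi8 peaks, 14 (21.2%, 12.1 to 33.0) overlapped no OE peak, against 39.4% near any gene. With every list reduced to its 111510 strongest peaks, 13% of OE peaks were absent from mi8, against 14.8% near any gene, and 9.80% of mi8 peaks were absent from OE, against 18.3%. The peaks at the 8 genes were also stronger, with a median −log10 q of 24.2 in mi8 against 14.4 near any gene. Of the 36 mi8 peaks with −log10 q of at least 20 at the 8 genes, 2 (5.56%, 0.680 to 18.7) were absent from OE, against 3.99% near any gene. Of 25 OE peaks of that strength at the 8 genes, 0 were absent from mi8, against 0.0996% near any gene. The 14 absent peaks fell at Ccr7 (5), Cd83 (4), Il4i1 (3), Ccl22 (1) and Il15 (1).
Among the 51 regions that OE and mi8 shared, the relative ratio had a median of 1.01 and ran from 0.468 to 1.72. There were 8 regions (15.7%) lower in OE by 1.5-fold or more, against 13.1% near any gene, and 1 (1.96%) was higher, against 7.35%. The 8 lay at Ccr7 (2), Cd83 (2), Il15 (2), Ccl17 (1) and Il4i1 (1). The share that was lower is near the background, so it is no result about these genes. Scaled by depth alone, 16 of the 51 (31.4%) were lower, against 29.6% near any gene, and 0 were higher, against 2.12%. By gene, the median relative ratio was 0.66 over 3 regions at Ccr7, 0.77 over 8 at Cd83, 0.87 over 5 at Il4i1, 0.89 over 2 at Ccl22, 0.99 over 6 at Ccl17, 1.03 over 15 at Il15 and 1.14 over 12 at Cd200. Whether a gene's median stands apart from other genes was not tested.

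**Figure D3:**
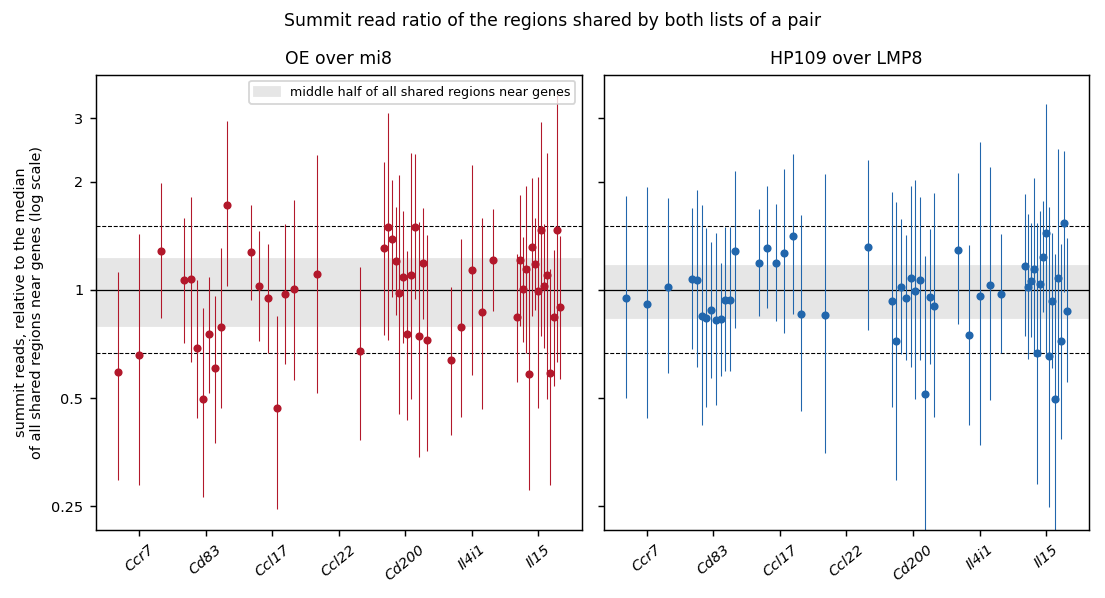
Summit reads of each shared region at the 7 genes, OE over mi8 at the left and HP109 over LMP8 at the right, relative to the median of all shared regions near genes, on a log axis. Points are regions in order along the chromosome, bars are exact 95% counting intervals, the grey band holds the middle of all shared regions from the lower to the upper quartile, and dashed lines mark 1.5-fold. For OE over mi8 the points run from 0.468 at the start of Ccl17 to 1.72 above Cd83, and for HP109 over LMP8 from 0.498 to 1.53, both at Il15.

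Between HP109 and LMP8, the list of the hairpin vector held more peaks than that of its control, both at the 8 genes and near any gene. With lists of equal length the larger absent share at the 8 genes was that of LMP8 peaks, but on few peaks, 8 of 53 against 3 of 47. Of the 66 HP109 peaks at the 8 genes, 12 (18.2%, 9.76 to 29.6) overlapped no LMP8 peak, against 23.7% near any gene. Of the 58 LMP8 peaks, 4 (6.90%, 1.91 to 16.7) overlapped no HP109 peak, against 7.97%. Both intervals include the value near any gene. At equal list lengths 6.38% of HP109 peaks were absent from LMP8, against 13.4% near any gene, and 15.1% of LMP8 peaks were absent from HP109, against 12.8%. At a −log10 q of at least 20, 0 of 34 HP109 peaks were absent from LMP8, against 0.457% near any gene, and 0 of 23 LMP8 peaks were absent from HP109, against 0% near any gene. The regions in HP109 alone of this pair lay at Il15 (4), Ccl17 (3), Cd200 (2), Ccr7 (1) and Il4i1 (1), and the last of the 12 absent peaks lay in a region that LMP8 shared through another HP109 peak.
The 51 regions shared by HP109 and LMP8 had a median relative ratio of 0.974, with 3 (5.88%) lower by 1.5-fold or more, against 8.67% near any gene, and 1 (1.96%) higher, against 4.24%. Scaled by depth alone, 0 were lower, against 0.867% near any gene, and 15 (29.4%) were higher, against 38.5%. By gene, the median was 1.23 at Ccl17, 1.08 at Ccl22, 1.04 at Il15, 0.97 at Il4i1, 0.95 at Ccr7, 0.95 at Cd200 and 0.91 at Cd83.

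The control vectors differed from each other as well. Of the 58 LMP8 peaks at the 8 genes, 2 (3.45%, 0.420 to 11.9) overlapped no mi8 peak, against 6.12% near any gene. Of the 66 mi8 peaks, 12 (18.2%, 9.76 to 29.6) overlapped no LMP8 peak, against 24.2%, and at equal list lengths 5.88%, against 12.7%. In reverse, 5.66% of LMP8 peaks were absent from mi8 at equal lengths, against 11.0%. At a −log10 q of at least 20, 0 of 23 LMP8 peaks were absent from mi8, against 0% near any gene, and 0 of 36 mi8 peaks were absent from LMP8, against 0.187%. Of the 53 shared regions, 3 (5.66%) were lower in LMP8 by 1.5-fold or more, against 3.72% near any gene, and 2 (3.77%) were higher, against 5.38%. By depth alone 4 (7.55%) were lower, against 9.0%, and 0 were higher, against 2.1%. The share of mi8 peaks missing from the other list was 21.2% for OE, which matched mi8 in depth, and 18.2% for LMP8, which did not, and depth and vector cannot be told apart for LMP8.

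**Figure D4:**
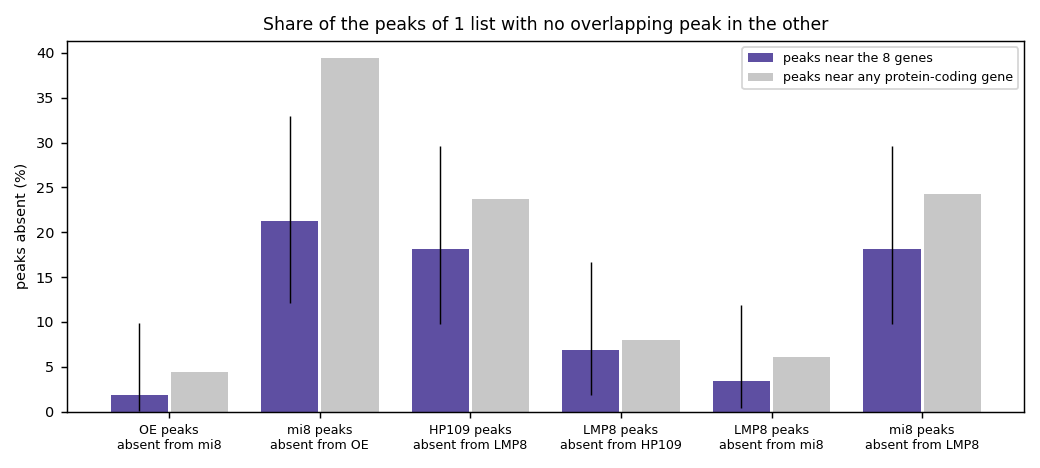
Share in percent of the peaks of 1 list that overlap no peak of the other, for the peaks at the 8 genes and for the peaks near any protein-coding gene. Lines are exact 95% intervals for counting error at the 8 genes. With all peaks of each list counted, the bars at the 8 genes are lower than the bars near any gene in all 6 comparisons, which share peaks. The interval excludes the value near any gene only for mi8 peaks absent from OE, with 21.2% against 39.4%. The mi8 peaks at the 8 genes were also stronger, with a median −log10 q of 24.2 against 14.4. Among mi8 peaks with −log10 q of at least 20 the shares were 5.56% and 3.99%.

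Genes that work with these 8 were described from 3 lists. The share of mi8 regions without an OE peak was 33.0% for 16 ligands and receptors, 35.6% for 36 genes of maturation and costimulation and 38.8% for 30 genes of the cytoskeleton and of migration, against 21.5% for the 8 genes and 39.3% of mi8 regions near any gene. The reverse share, OE regions without a mi8 peak, was 5.19%, 7.44% and 4.92% for these lists in turn, against 1.92% for the 8 genes and 4.56% near any gene. For HP109 regions without an LMP8 peak the lists had 22.0%, 20.1% and 22.0%, against 17.7% for the 8 genes and 24.1% near any gene. LMP8 regions without an HP109 peak made up 5.56%, 9.02% and 5.46%, against 7.27% for the 8 genes and 7.64% near any gene. No list departed from the background by as much as the 8 genes did in mi8 regions without an OE peak. The mi8 peaks at the 8 genes were stronger, with a median −log10 q of 24.2 against 14.4 near any gene. Among mi8 peaks with −log10 q of at least 20, 5.56% at the 8 genes were absent from OE, against 3.99% near any gene. Peak strength in the 3 lists was not compared.

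Among the single genes of these lists, regions in mi8 and not in OE were highest in number at Cd86, a costimulatory ligand, with 19 of its 42 mi8 regions (45.2%). Dock2, a Rac activator needed for the migration of leukocytes, had 18 of 44 (40.9%), and Myh9, a non-muscle myosin heavy chain, had 16 of 30 (53.3%). These counts follow the number of regions a gene has, and the share near any gene was 39.3%. Larger shares were seen at genes with few regions, such as Il2rb, a receptor chain for Il15, with 5 of 6 and Bcl2l14 with 7 of 12, both named after their values were seen. Itgam, the CD11b integrin chain, had 10 of 22 (45.5%), Rel, an NF-kB subunit, 10 of 19 (52.6%) and Stat4 10 of 18 (55.6%). In the other direction Cd274, which encodes PD-L1, had the most, 12 of its 28 OE regions not in mi8 (42.9%, against 4.56% near any gene). Dock2 followed with 5 of 31 (16.1%). Actg1 and Nfkbia had 2 of 11 each (18.2%), Birc3 2 of 15 (13.3%), Myo1g 2 of 13 (15.4%) and Samsn1 2 of 18 (11.1%).
The promoter bases held a peak in mi8 and none in OE at Ccr4, the receptor of Ccl17 and Ccl22, and at Ccr2, Serpinb6b, Pdpn and Clec1b, and at no gene of the lists in reverse. Over all genes, a peak within 1000 bp of a gene end was called at 58.2% in OE and 64.8% in mi8. The matching share over all promoters was not counted, so these promoter calls are no result about these genes. For HP109 without LMP8, Dock2 had 15 of its 51 HP109 regions, Myh9 12 of 35, Irf4 9 of 18 and Bcl2a1b 8 of 23. Cd86 had 7 of 34 and Samsn1 7 of 24, while the share near any gene was 24.1%. For LMP8 without HP109, Cd86 had 4 of its 31 LMP8 regions, Dock2 4 of 40 and Il12b 4 of 10. Cflar had 3 of 19, Stat4 3 of 12 and Vasp 3 of 11, while the share near any gene was 7.64%. The genes of both directions were named by count, not by share. A promoter peak called in HP109 alone of its pair was found at Cd209a, Mmp14, Clec1b and Cd38, and one called in LMP8 alone was found at no gene of the lists. For this pair the share over all promoters was not counted either, and gene-end peaks were called at 64.3% of all genes in HP109 and 62.4% in LMP8.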

How the data were processed

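ATAC-seq libraries were made from 4 groups of transduced dendritic cells, 2 libraries per vector, with 1 input library that served all lists, per the labels. The label of every list, not only that of mi8, names the input together with mi8, while the sample title reads input for DCs. The submitters' processing notes name BWA (alignment), Picard (read handling), MACS2 (peak calling) and build mm10. Not given in the sources used here: tool versions, thresholds, the depth of the downsampling that the list labels name, and whether and how the 2 libraries of a vector were pooled. The score the authors deposited equals the −log10 q multiplied by 10 and rounded, and was not used further. The fold deposited by the authors is a ratio of the summit pileup to the local background. The deposited −log10 p and −log10 q measure the excess of the summit over that background.

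Summit reads were solved for from the fold, as (reads + 1) over (background + 1), and the Poisson p. A whole number matched within 0.001 for 100% of the peaks in each list, and the method was tested on simulated data. Median summit reads were 25 in OE, 24 in mi8, 21 in HP109 and 19 in LMP8, which limits the precision of a ratio. A peak is called absent from a list when no peak there overlaps it by 1 bp. Peaks of the 4 lists that overlapped were merged into regions, each with the strongest peak of each list. Ratios of summit reads carry exact intervals from the binomial split of both counts, shares carry Clopper-Pearson intervals, and both at 95% cover counting error only. The scaling to the median of regions near genes was chosen after the data were seen. Gene spans were those of RefSeq on GRCm38.p6, the assembly of mm10, without strand or exons, so exon and intron are not stated. The text names all 8 genes, for each its strongest region, its start region and the strongest region in 1 list of a pair, and the genes of the other lists with most regions in 1 list alone. The 8 genes, the 3 gene lists, the 6 marker lists and the naming rule were chosen with earlier results of these data known. Alternatives were the window (2 and 25 kb), a −log10 q of at least 5, an overlap of 50%, equal numbers of peaks per list, depth scaling alone, reads summed over summits, and leaving out Il4i1 or Il15. Analyses used Python 3.11.15, pandas 2.3.3, scipy 1.17.1 and numpy 2.4.6.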

Additional observations from a re-analysis of the deposited data

How the results depend on the processing

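Of 68 values recomputed under 10 alternatives, 56 stayed within the counting interval or within 1.5 times the count reported, and 12 moved. With every list reduced to its 111510 strongest peaks, 13% of OE peaks at the 8 genes were absent from mi8 (14.8% near any gene) and 9.80% of mi8 peaks were absent from OE (18.3% near any gene). Under the same setting 6.38% of HP109 peaks were absent from LMP8 and 5.88% of mi8 peaks were absent from LMP8. An overlap of at least 50% lowered the share of regions present in all 4 lists to 44.7%, against 35% near any gene. The windows of 2 and 25 kb and a −log10 q of at least 5 moved no share beyond its interval. Counting every summit as its own entry could move nothing, because 0 peaks of any list held several summits. The 7 values of that setting are among the 56 and are no check. Depth scaling alone, summed reads and leaving out a gene were added after the data were seen. With depth scaling alone, 16 regions were lower in OE than in mi8 and 0 higher, 0 were lower in HP109 than in LMP8 and 15 higher, and 0 were higher in LMP8 than in mi8. With reads summed over all summits of a region, 2 regions were higher in OE than in mi8 and 3 were higher in HP109 than in LMP8. Leaving out Il4i1 or Il15 moved no share beyond its interval. No paired analysis was possible because there is 1 list per vector, to which the labels tie both of its libraries, and for the same reason no replicate could be left out.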

Other observations

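Between the windows of Ccl22 and Ccl17 lay 38 kb of chromosome 8 that hold Cx3cl1, which encodes the chemokine fractalkine. The stretch held 9 regions, of which OE had 3, mi8 9, HP109 8 and LMP8 8, so 6 of the 9 mi8 regions had no OE peak, against 39.3% of mi8 regions near any gene. The stretch was looked at after the values at both genes were seen, and no test was made. Inside Cx3cl1, the region at 94779034 to 94779505 had no peak in OE but 41 reads in mi8, 31 in HP109 and 20 in LMP8. Its −log10 q was 34.2 in mi8, 27.0 in HP109 and 13.2 in LMP8. Nearby, the region at 94771937 to 94772420 was present throughout, with 47 reads in OE, 60 in mi8, 60 in HP109 and 36 in LMP8. Closer to Ccl17, at 94789336 to 94789519, OE had no peak, while mi8 had 22 reads, HP109 31 and LMP8 11.

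Next to the peak-free stretch around Fscn1, the nearest regions were themselves present in all 4 lists. The one below it, at 142938357 to 142938757, had 13 reads in OE, 35 in mi8, 28 in HP109 and 24 in LMP8. The one above it, at 143032990 to 143033601, had 21 reads in OE, 31 in mi8, 37 in HP109 and 27 in LMP8.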
